A study of Homo sapiens with 5 samples.

Results

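The 4 stretches of chromosome 12 described here are the hg19 intervals chr12:1000001-2000000, chr12:48000001-49000000, chr12:69000001-71000000 and chr12:89000001-90000000. They are called the 1 Mb, 48 Mb, 69 to 71 Mb and 89 Mb stretches after their start. The third contains MDM2, CPM and FRS2. A peak belonged to a stretch where its summit fell inside, and 575 of the 100703 peaks of the study did so. These were 117 of 43159 H3K27ac peaks of the line RD, 236 of 46408 H3K27ac peaks of the line RH18, and 222 of 11136 MYF5 peaks of RH18. The intervals were chosen by 2 measured values, the density of RH18 peaks and their local background, both high there. Density and background are therefore described below without a test, and so is every fold value, which is computed from that background.

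RD and RH18 are established human lines grown from fusion-negative rhabdomyosarcoma, a soft tissue tumour of childhood whose cells resemble immature skeletal muscle, and neither carried a stated treatment or genetic change. Both were grown in DMEM with serum, and chromatin was fixed in 1% formaldehyde for 12 minutes before chromatin immunoprecipitation and sequencing (ChIP-seq). Histone H3 acetylated at lysine 27 (H3K27ac) was mapped in both lines and the myogenic factor MYF5 in RH18, with 1 library per group. Input DNA was also listed for each line and was not analysed directly here, though its reads may be part of the local background. No value below has a replicate error, each line is 1 cell population, and intervals on shares are exact Clopper-Pearson 95% intervals that cover counting error only.

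H3K27ac is deposited on nucleosomes at active promoters and enhancers. MYF5 is a basic helix-loop-helix protein that binds E-boxes, short sites of the form CANNTG, and acts early in the muscle lineage. MDM2 is the ubiquitin ligase that removes p53, CPM is a membrane carboxypeptidase, and FRS2 is the adaptor that couples fibroblast growth factor receptors to the RAS and MAP kinase pathway. The long arm of chromosome 12 around MDM2 and FRS2 is a known site of DNA amplification in sarcomas. Copy number was not measured in these data.

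A peak caller reports how far the tag pile at a summit exceeds a local background, the level it assumes for that neighbourhood. Tags at each summit and that background were worked back from the fold and p-value the authors deposited. Background is given here as a multiple of the lowest background in the same list, or in tags, and is called raised at 4 times or more. Whether inputs served as the control for it is not stated. The background may hold input reads, and which library gave it was not tested. Multiples are relative to each list's own floor and are not on a common scale across lists.

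Reference promoters of the genes that gave the third stretch its name are shown because MYF5 peaks were dense in this stretch and E-boxes are the sites this family binds. They come from RefSeq on the build GRCh38.p14, run from 250 bases before to 50 bases after a transcript start on the gene's own strand, and have E-boxes in capitals. MDM2 and FRS2 are on the plus strand and CPM on the minus strand. The peaks lie on another build, so a peak could not be placed on these sequences.
MDM2 start 1: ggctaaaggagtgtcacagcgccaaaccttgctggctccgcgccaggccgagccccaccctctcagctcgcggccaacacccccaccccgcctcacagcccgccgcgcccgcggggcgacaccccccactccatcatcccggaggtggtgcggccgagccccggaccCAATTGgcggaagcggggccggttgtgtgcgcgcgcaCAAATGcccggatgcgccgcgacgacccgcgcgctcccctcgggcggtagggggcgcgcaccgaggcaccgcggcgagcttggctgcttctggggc
MDM2 start 3: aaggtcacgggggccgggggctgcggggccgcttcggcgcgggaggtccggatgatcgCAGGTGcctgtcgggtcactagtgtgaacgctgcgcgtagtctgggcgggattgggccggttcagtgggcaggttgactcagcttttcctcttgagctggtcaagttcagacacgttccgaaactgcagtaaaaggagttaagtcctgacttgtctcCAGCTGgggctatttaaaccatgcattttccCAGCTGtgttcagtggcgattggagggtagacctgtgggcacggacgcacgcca
CPM start 1: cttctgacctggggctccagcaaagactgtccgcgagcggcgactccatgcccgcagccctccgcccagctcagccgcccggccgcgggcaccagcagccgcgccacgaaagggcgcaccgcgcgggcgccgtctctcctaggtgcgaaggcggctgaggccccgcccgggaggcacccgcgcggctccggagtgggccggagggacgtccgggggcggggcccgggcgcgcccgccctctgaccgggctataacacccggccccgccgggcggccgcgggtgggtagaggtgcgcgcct
FRS2 start 1: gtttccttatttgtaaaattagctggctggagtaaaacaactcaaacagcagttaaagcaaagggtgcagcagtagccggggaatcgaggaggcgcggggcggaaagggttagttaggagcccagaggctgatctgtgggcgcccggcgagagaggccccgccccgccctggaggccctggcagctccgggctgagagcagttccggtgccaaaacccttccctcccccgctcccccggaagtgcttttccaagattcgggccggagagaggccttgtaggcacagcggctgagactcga
MDM2 start 1 held the E-boxes CAATTG and CAAATG. MDM2 start 3 held CAGGTG and 2 copies of CAGCTG. No CANNTG stood in the CPM and FRS2 windows shown. The motif reads CANNTG on both strands, since its reverse complement has the same form. Of all 35093 RefSeq promoter windows of this length, 68.7% held a CANNTG and 17.9% held CAGCTG, so a match is common and marks no bound site.

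The 69 to 71 Mb stretch had the highest background of each RH18 list. In its first megabase the median background was 31.1 times the lowest for 23 RH18 H3K27ac peaks, with a range from 1.00 to 131. For 24 MYF5 peaks the median was 23.7 times, from 5.03 to 73.0. The 20 RD peaks there had a median of 3.65 times, from 1.00 to 17.2. In the second megabase the medians were 14.8 times for 28 RH18 H3K27ac peaks, 9.95 times for 66 MYF5 peaks and 1.51 times for 16 RD peaks. In the whole lists the medians were 1.52, 1.27 and 2.34 times for RH18 H3K27ac, MYF5 and RD, so the RH18 medians stood well above their lists in both megabases, while the RD median was above its list in the first and below it in the second.

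The background rose to its maximum near the middle of the stretch. The RH18 H3K27ac peak chr12:69950071-69950369 had 394 tags over a background of 208 tags, which is 131 times the lowest background and a fold of only 1.89. Its neighbour chr12:69948428-69949208 had 416 tags over 165 tags, and chr12:69980152-69980450 had 271 tags over 166 tags. No RD peak lay at these 3 summits. All 3 were called although their fold was between 1.63 and 2.52, where the median fold of the RH18 H3K27ac list was 13.98.

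Several tall peaks of the stretch were shared by both lines. The RH18 H3K27ac region chr12:69201081-69202885 had 443 tags over a background of 73.0 tags, the most tags of any peak in that list. It contained the summits of 2 MYF5 peaks. The first, chr12:69201989-69202410, had 266 tags over 109 tags, and the second, chr12:69202524-69202940, had 277 tags over 58.7 tags. RD had a region in the same place, chr12:69201984-69202897, with 243 tags over 17.04 tags. The same held at chr12:69978897-69979879, where RH18 had 442 H3K27ac tags over 85.3 tags, RD had 252 tags over 17.04 tags, and MYF5 had 323 tags over 114 tags. At these 2 places the H3K27ac background was 46.1 and 53.8 times the lowest of the RH18 list, and 7.28 times the lowest of the RD list at each.

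Background was not raised at 2 places in this stretch. The 3 RH18 H3K27ac peaks with summits at chr12:69633119-69634083 had backgrounds of 1.00, 2.27 and 1.00 times the lowest, with 24, 32 and 72 tags, and no MYF5 peak lay among them. RD peaks in the same place had 70 and 138 tags, with backgrounds of 3.12 and 7.83 times. Raised background stopped on one side at 69447747 and began again on the other at 69753716, with no other RH18 H3K27ac peak between. The MYF5 list did not show this gap, since its peaks inside those limits were raised and its run of raised peaks went through from 68891675 to 70637688. At the second place 3 MYF5 summits, at 70371960, 70374734 and 70375107, had 3.89, 3.80 and 3.52 times, just under the limit, and a raised one at 70373636 with 5.84 times stood among them. These 3 were the only members of the second megabase in the RH18 lists that were not raised.

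MYF5 peaks of the third stretch were crowded into its second megabase. The 100 kb window from 70300001 held 33 MYF5 peaks, 7 RH18 H3K27ac peaks and 4 RD peaks. It tied with the window from 48300001 as the densest of all windows in the MYF5 list, where the median over 6373 windows with a peak was 1 peak. Only 4 windows of the genome held 20 or more MYF5 peaks, and all 4 lay in these stretches. MYF5 background in the window from 70300001 ran from 3.52 to 11.7 times the lowest, lower than the 20.9 to 73.0 times of the 6 MYF5 peaks in the window from 69900001. The tallest MYF5 peak of the whole list, chr12:70290936-70292721, lay beside it with 339 tags over 20.3 tags. Its summit was inside the RH18 H3K27ac region chr12:70291606-70292434 and 111 bp from an RD region, and the peak itself extended past the RH18 region on both sides and overlapped RD regions.

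Both RH18 lists ended abruptly on the far side of this stretch, and RD peaks stopped there too. The last raised RH18 H3K27ac peak before the end was chr12:70636403-70638245, with 442 tags and a background of 21.4 times. The last MYF5 summit was at 70637688, with a background of 34.1 times. The last RD summit of the stretch was at 70637682, and the windows from 70700001 to 71800000 held no peak of any list. No RH18 peak of either list had a summit in the following megabase, where RD had 8, all in the window from 71800001. The next RH18 H3K27ac summit was at 72057425 with the lowest background of its list, and the next MYF5 summit was at 75905387. On the near side, the last RH18 H3K27ac peak at the lowest background was at 68726459 and the first raised one at 68954543, so raised background began before the stretch did.

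**Figure D1:**
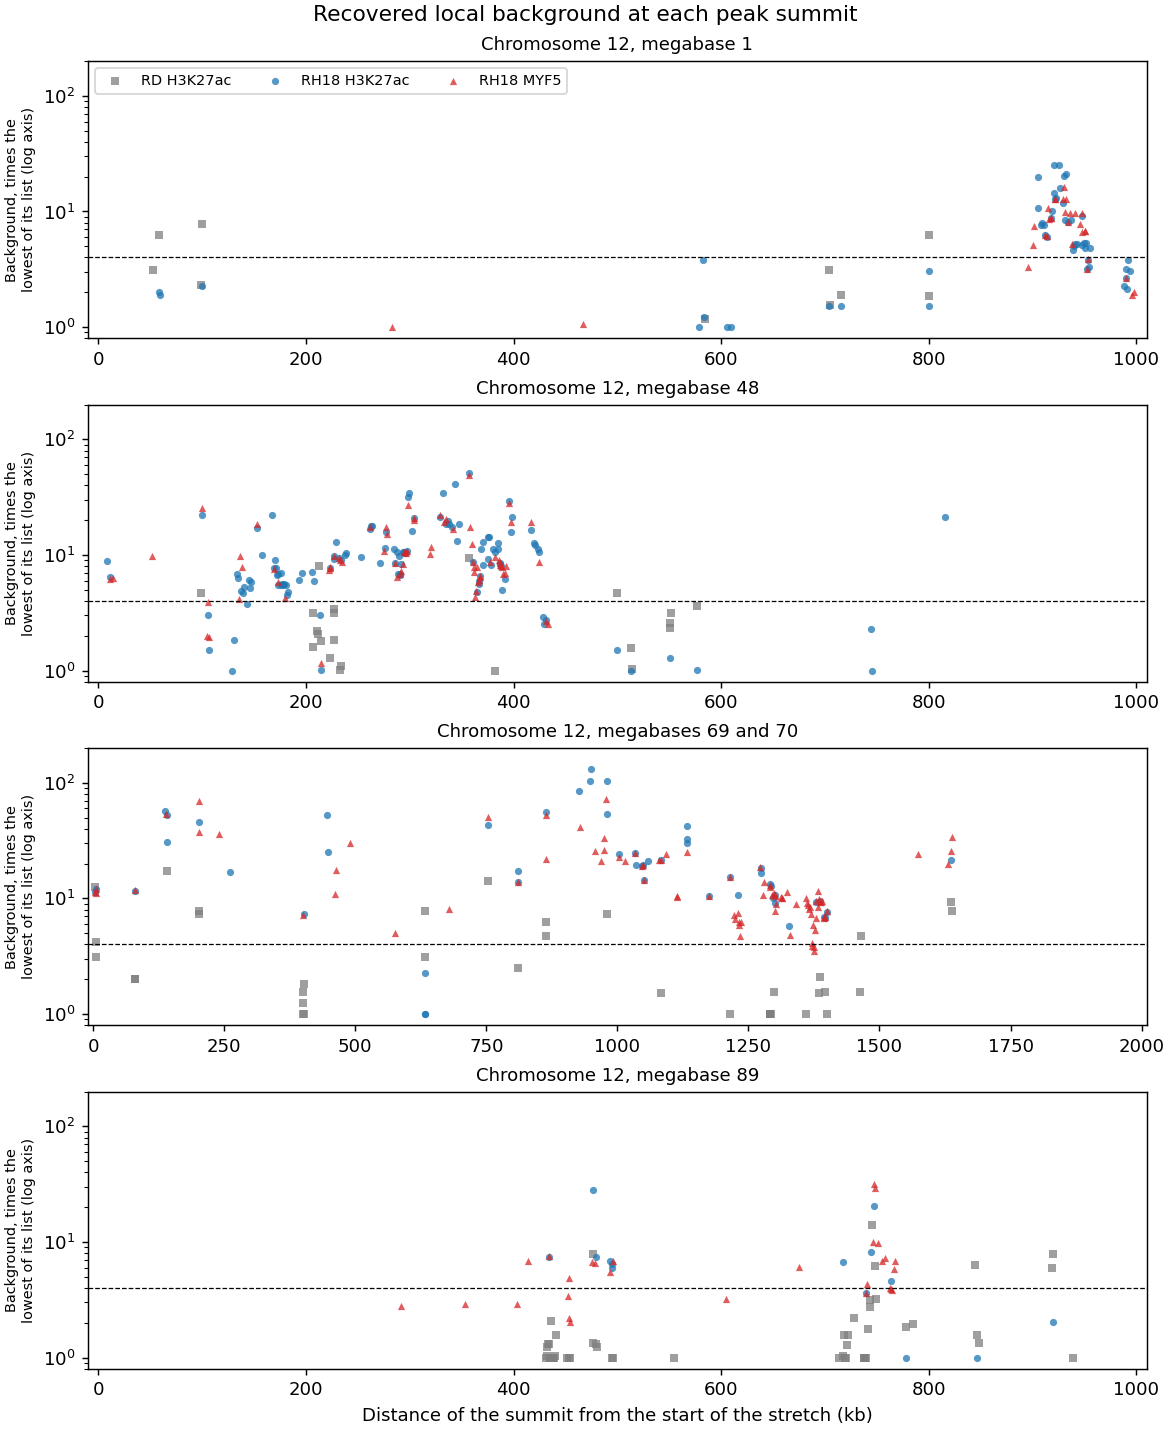
Background of each peak as a multiple of the lowest in its list (log axis) against the distance of its summit from the start of the stretch, for RD H3K27ac (squares), RH18 H3K27ac (circles) and RH18 MYF5 (triangles), with a dashed line at 4 times. RH18 peaks rise to 131 times in the third panel, and in all 4 panels raised RH18 peaks form blocks. Only peaks with a summit inside a stretch are drawn.

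The 48 Mb stretch held the most RH18 H3K27ac peaks of the 4, 119, with 73 MYF5 peaks and 22 RD peaks. Median background was 8.59 times the lowest in the RH18 H3K27ac list, from 1.00 to 50.8, and 8.53 times in the MYF5 list, from 1.17 to 48.7. It was 2.26 times in RD. Genes known to lie here include HDAC7, a class IIa histone deacetylase, VDR, the vitamin D receptor, COL2A1, the fibrillar collagen of cartilage, SENP1, a SUMO protease, and PFKM, the phosphofructokinase of muscle. In the RefSeq order they follow one another as HDAC7, VDR, COL2A1, SENP1 and PFKM.

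Raised background in this stretch came in 3 separate blocks of RH18 H3K27ac peaks. The first ran from 47937734 to 48099700 with 4 peaks, the second from 48133839 to 48424173 with 102 peaks, and the third from 48815512 to 49183078 with 12 peaks and a median of 18.6 times. The second block had 99 raised peaks, more than any of the 2558 runs of raised peaks in that list. Its edges were narrow: background went from 1.84 to 6.82 times across 2844 bp on one side, and from 10.6 to 2.90 times across 4638 bp on the other. Between the second and the third block the 11 RH18 peaks of both lists stayed between 1.00 and 2.90 times. The third block crossed the end of the stretch, and 16 of 53 RH18 H3K27ac peaks in the following megabase were raised (30.2%, beside 10.1% of the list).

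Inside the second block 1 place stood at the floor. The RH18 H3K27ac region chr12:48213539-48215368 had 291 tags over 1.59 tags, 1.00 times the lowest background, and a fold of 104.55. The MYF5 peak in it, chr12:48214538-48214881, had 27 tags over 1.83 tags. RD had a region in the same place, chr12:48213939-48215392, with 188 tags over 4.20 tags. The raised RH18 H3K27ac summits on either side were at 48207969 and 48222922. The tallest RH18 region of the stretch, chr12:48357348-48358212, showed the opposite, with 386 tags over 80.5 tags and a fold of 4.74. Of its 2 MYF5 peaks, chr12:48357159-48357590 had 196 tags over 76.0 tags.

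The 1 Mb stretch held most of its RH18 peaks in 1 short block near its end. The window from 1900001 had 40 RH18 H3K27ac peaks, 28 MYF5 peaks and no RD peak. Raised H3K27ac peaks ran from 1905131 to 1951388, where all 30 were raised with a median of 8.38 times, and the MYF5 run went from 1900536 to 1950574 with 23 of 23 raised. Before the block the 15 RH18 peaks of both lists had 1.00 to 3.79 times the lowest background. After it the 15 peaks from 1952717 to 1997182 had 1.89 to 4.79 times, so the background fell in a shoulder rather than to the floor. Over the whole stretch the median was 5.18 times for RH18 H3K27ac, 7.54 times for MYF5 and 2.72 times for 10 RD peaks. The genes known to lie here include ERC1, a scaffold of the active zone and of NF-kappa-B signalling, WNT5B, a secreted WNT ligand, ADIPOR2, an adiponectin receptor, and CACNA2D4, a calcium channel subunit.

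The tallest peak of this block was the RH18 H3K27ac region chr12:1921779-1922180, with 275 tags over 20.3 tags. The MYF5 peak in it, chr12:1921848-1922409, had 85 tags over 19.95 tags. The MYF5 peak with the most tags in the stretch, chr12:1928831-1929679, had 137 tags over 20.1 tags, and the nearest RD region was 91033 bp from its summit. The 2 other tall RH18 regions lay far outside the block and were shared with RD. At chr12:1057729-1059060 RH18 had 217 tags over 3.21 tags and RD, at chr12:1058165-1058857, had 191 tags over 14.7 tags. At chr12:1099393-1100346 RH18 had 209 tags over 3.60 tags and RD, at chr12:1099468-1100281, had 210 tags over 18.3 tags.

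The 89 Mb stretch was the only one of the 4 where RD had more H3K27ac peaks than RH18, 49 against 14, with 28 MYF5 peaks. DUSP6, the phosphatase that switches off ERK and is itself induced by that pathway, and ATP2B1, a calcium pump of the plasma membrane, are known to lie here, with POC1B and GALNT4 between them in the RefSeq order. Median background was 6.56 times the lowest for RH18 H3K27ac, from 1.00 to 28.0, and 5.69 times for MYF5, from 2.01 to 32.0. It was 1.22 times for RD. The raised H3K27ac block ran from 89434062 to 89763759 with 10 of 11 peaks raised, across a gap of 222340 bp without an RH18 H3K27ac peak. The MYF5 run went from 89413515 to 89757527 with 15 of 20 raised. A further MYF5 run, from 89766293 to 89766987, had 2 of 2 raised. The MYF5 peaks between these runs had 3.87 to 3.97 times, just under the limit. The 3 MYF5 peaks before the block had 2.80 to 2.92 times the lowest background, and the H3K27ac peak after it, at 89777896, had 1.00 times.

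Peaks of this stretch gathered in 2 windows. The window from 89400001 held 22 RD, 6 RH18 H3K27ac and 11 MYF5 peaks, and the window from 89700001 held 20, 6 and 13. The tallest RH18 region, chr12:89745088-89748640, had 432 tags over 32.4 tags and held 3 MYF5 summits. RD covered the same place with 2 regions, chr12:89744323-89746235 with 254 tags over 33.0 tags and chr12:89746509-89749292 with 268 tags over 14.6 tags. The RH18 region chr12:89492228-89493640 had 369 tags over 10.8 tags without an overlapping RD region, and its MYF5 peak chr12:89492417-89493245 had 206 tags over 8.66 tags. The MYF5 peak with the most tags here, chr12:89433742-89434268, had 289 tags over 11.8 tags and sat in an RH18 region with 159 tags.

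**Figure D2:**
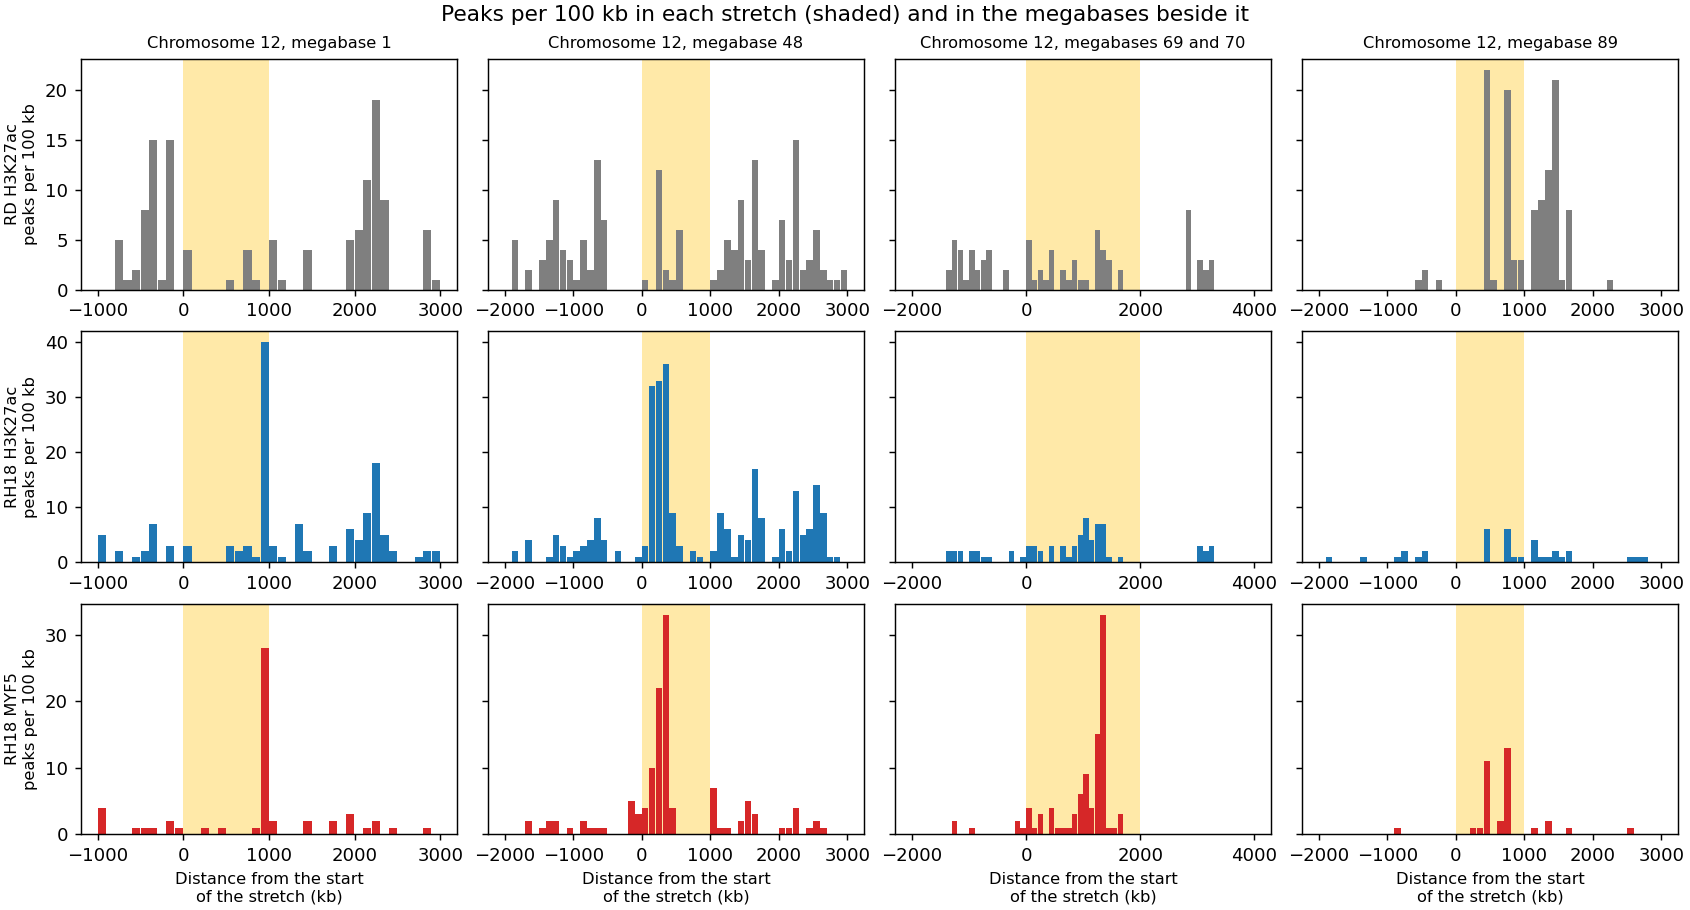
Number of peaks per 100 kb window against distance from the start of each stretch, for the 3 lists in rows and the 4 stretches in columns, with the stretch shaded. RH18 H3K27ac reaches 40 peaks in a window of the 1 Mb stretch and MYF5 reaches 33 peaks in windows of the 48 Mb and 69 to 71 Mb stretches, while RD has no such rise there.

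Across all stretches, 192 of 236 RH18 H3K27ac members (81.4%) and 194 of 222 MYF5 members (87.4%) were raised, beside 10.1% and 4.91% of the whole lists. In RD 26 of 117 (22.2%) were raised, beside 31.9% of that list. These shares describe the choice of the stretches and test nothing. The 236 members included 39 of the 46 RH18 H3K27ac peaks at 20 times or more and 73 of the 100 with the highest background. For MYF5 the stretches held 34 of 41 peaks at 20 times or more and 87 of the 100 highest backgrounds. The 3 runs with the most raised RH18 H3K27ac peaks in the genome were those from 48133839, 69753716 and 1905131. That from 69753716 was extended to 72080014 by the rule that joins raised peaks across up to 2 lower ones, over a gap of 1420435 bp without an RH18 H3K27ac peak.

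Neighbouring summits of the RH18 lists had much the same background. Of the 222 MYF5 members, 132 had an RH18 H3K27ac summit within 1 kb. The ratio of the MYF5 to the H3K27ac background had a median of 1.00 with quartiles of 0.955 and 1.07, and it ran from 0.347 to 1.86. It lay within 10% of equality in 78 pairs (59.1%), beside 56.9% of 7872 pairs elsewhere. Pearson's r of the log2 backgrounds across pairs was 0.94 in the stretches and 0.69 elsewhere, where backgrounds spanned mostly low values with medians of 1.37 and 1.52 times. The pairs share the cell line and perhaps a control library, and a summit may occur in several pairs, so these r are a description. If both backgrounds come from the same reads, nearness to equality follows from that. It is therefore not read as agreement between separate libraries. Some neighbours had the same multiple to all digits recovered, as 24.874 at 70033339 and 70033343 and 10.871 at 48297742 and 48297755. A ratio of 1.2849 also recurred, at the MYF5 summits 1950080, 48105521 and 48106845. Whether 1 control gave both backgrounds was not tested, so the RH18 lists are not taken as separate measurements of background.

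RD and RH18 H3K27ac summits within 1 kb of each other were also paired, and each background is given as a multiple of its own list's lowest. In the second megabase from 69 Mb, 13 pairs had medians of 12.9 times in RH18 and 1.51 times in RD, and all 13 RH18 summits were raised. In the first, 17 pairs had medians of 12.0 times in RH18 and 4.70 times in RD. The medians were 6.55 and 2.47 times over 20 pairs at 48 Mb, and 7.37 and 1.30 times over 15 pairs at 89 Mb. At 1 Mb they were 1.52 times in RH18 and 2.31 times in RD over 9 pairs, none of which had a raised RH18 summit, and these RD peaks lay outside the RH18 block.

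**Figure D3:**
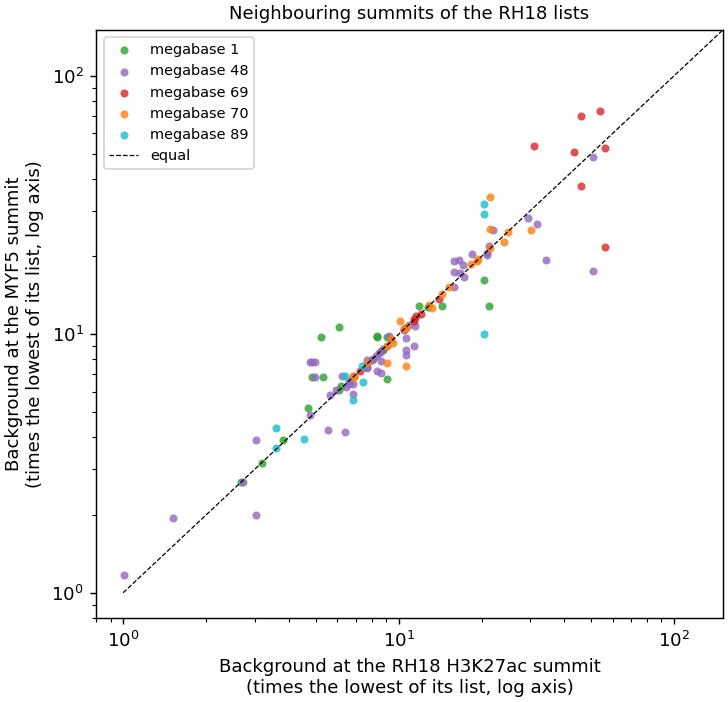
Background at each MYF5 summit against background at the RH18 H3K27ac summit within 1 kb, both as multiples of the lowest in their list (log axes), coloured by megabase, with the line of equality dashed. Of 132 pairs, 78 lie within 10% of the line, up to values above 50 times on both axes. Both lists may share a control, so nearness to the line is not read as agreement between separate libraries.

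Tags at the summits were higher in the stretches than elsewhere, and background took up more of them. RH18 H3K27ac members had a median of 82 tags over 13.6 background tags, where the whole list had 57 tags over 2.40. MYF5 members had 77.5 tags over 13.6, where the whole list had 42 over 1.99. RD members had 89 tags over 3.67, close to the 85 over 5.48 of their list. After subtracting background, RH18 H3K27ac members had a median of 64.9 tags beside 52.9 in the list, and MYF5 members 62.4 beside 39.4. By that measure 150 of 236 RH18 H3K27ac members (63.6%) stood above the median of their list, where 50% of the list does by definition. For MYF5 it was 196 of 222 (88.3%), beside 49.8%. Tags and background come from the same fold and p-value, and a high background also requires more tags for a call, so this is no independent measure.

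The fold enrichment of the members was low in spite of these tags. The median fold was 5.50 for RH18 H3K27ac members and 5.05 for MYF5 members, beside 13.98 and 11.2 in the lists, and 9.77 for RD members beside 8.0. Of the RH18 H3K27ac members 145 of 236 (61.4%) fell in the lowest 10% of folds in their list, a class that holds 10% of the list by construction. Of the MYF5 members 173 of 222 (77.9%) did, beside 10.1%, and of the RD members 6 of 117 (5.13%), beside 10%. The median fold of their list was reached by 29 of 236 RH18 H3K27ac members and 20 of 222 MYF5 members, while 68 and 18 had fewer tags than their list's median. Most of these peaks thus ranked low by fold and high by tags. Of the 11 RH18 H3K27ac peaks with tags within 5% of the list's maximum of 443 tags, 9 were members. The tallest members had 443, 442, 442 and 441 tags, and the tallest peak elsewhere had 441. Whether the processing set an upper limit on tags at a summit was not tested, so the order among these peaks carries little weight.

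Median tags above background differed between the stretches in the RH18 libraries. For H3K27ac they were 47.9 at 1 Mb, 60.8 at 48 Mb, 156 and 105.5 in the 2 megabases from 69 Mb, and 83.9 at 89 Mb. For MYF5 they were 47.3, 60.1, 151, 63.8 and 63.8 in the same order. The first megabase of the third stretch was highest in both libraries, as it was in background.

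**Figure D4:**
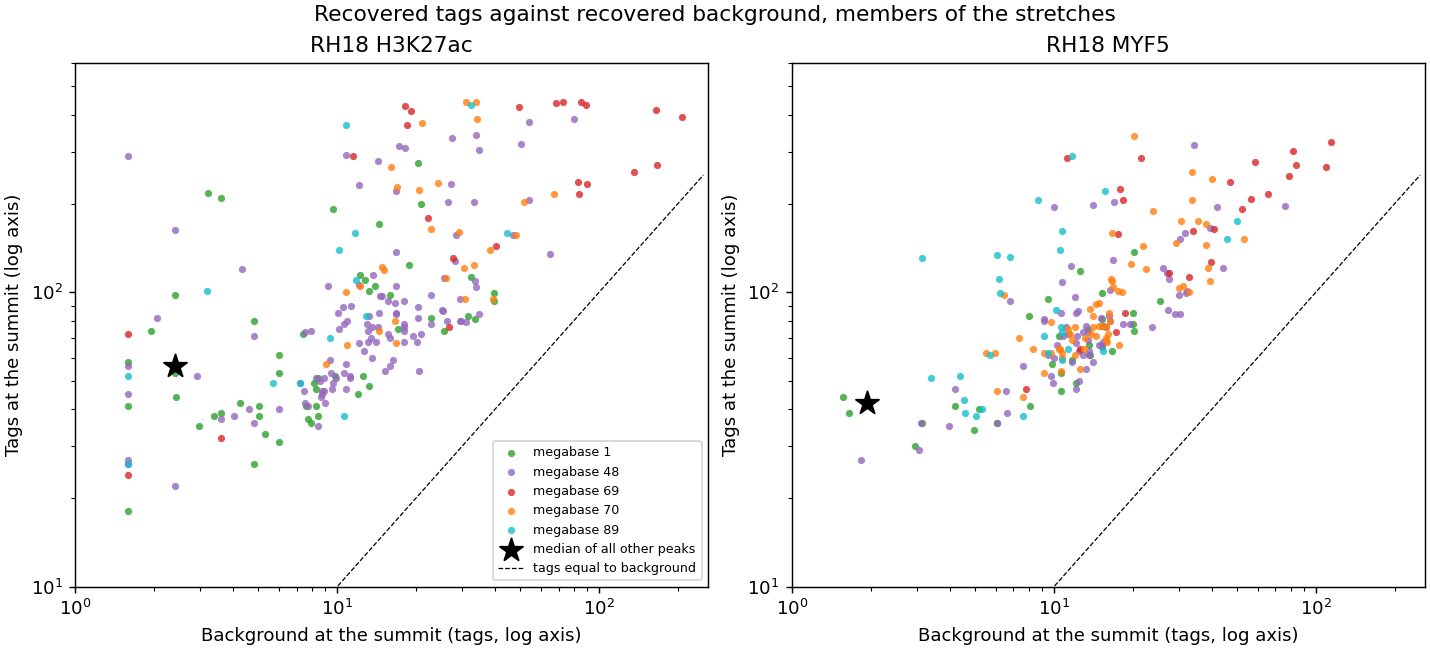
Tags at each summit against its background in tags (log axes) for the RH18 H3K27ac (left) and MYF5 (right) members, coloured by megabase, with a star at the median of all other peaks and a dashed line where tags equal background. Most members lie to the right of the star and closer to the dashed line, and the red points of the first megabase of the 69 to 71 Mb stretch reach 208 background tags.

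The share of RH18 H3K27ac regions that overlapped RD regions varied widely between the stretches. At least 1 bp was shared with an RD region by 53 of 236 (22.5%, interval 17.3% to 28.3%), beside 45.1% of the list. By stretch it was 7 of 52 at 1 Mb (13.5%), 14 of 119 at 48 Mb (11.8%), 12 of 23 and 9 of 28 in the 2 megabases from 69 Mb (52.2% and 32.1%), and 11 of 14 at 89 Mb (78.6%). The share was thus lowest at 48 Mb and 1 Mb. The 53 shared regions had a median of 159 tags and a fold of 12.0, and the 183 others 78 tags and a fold of 4.84, at similar backgrounds of 7.65 and 8.88 times. Seen from RD, 62 of 117 regions (52.99%) overlapped RH18, beside 60% of the list, with the lowest share at 89 Mb, 12 of 49. Peak density chose the stretches, and density in 1 line alone lowers such a share, so it has no test here.

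MYF5 summits of the stretches lay inside an RH18 H3K27ac region in 101 of 222 cases (45.5%, interval 38.8% to 52.3%), beside 55.2% of the list. The share was 21 of 31 at 1 Mb, 42 of 73 at 48 Mb, 11 of 24 and 20 of 66 in the 2 megabases from 69 Mb, and 7 of 28 at 89 Mb. It was lowest at 89 Mb and next lowest in the second megabase from 69 Mb (30.3%). Inside RD regions the count was 32 of 222 (14.4%, interval 10.1% to 19.7%), beside 39.9% of the list. None of 31 MYF5 summits at 1 Mb and 4 of 73 at 48 Mb were in an RD region, against 12 of 24 in the first megabase from 69 Mb. Seen from the mark, 84 of 236 RH18 regions (35.6%) held a MYF5 summit, beside 12% of the list, and 26 of 117 RD regions (22.2%) did, beside 9.71%. Density of RH18 peaks chose the stretches and can by itself move all these shares, so they have no test here.

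MYF5 members had more tags than other MYF5 peaks both inside and outside RH18 regions. The 121 outside had a median of 72 tags and a background of 7.79 times, and the 101 inside had 93 tags and 9.88 times. Elsewhere the medians were 43 tags and 1.005 times outside, and 41 tags and 1.51 times inside. The stretches were chosen for high background, which requires more tags for a call, so this difference has no test. The tallest outside, chr12:69400925-69401726, had 286 tags over 11.2 tags and a fold of 22.5. Its summit was 292 bp from an RH18 region and inside an RD region, and the peak itself overlapped that RH18 region, chr12:69401391-69401856. The peak chr12:69809527-69810063 also had 286 tags, over 21.5 tags, and its summit missed an RH18 region by 3 bp. The third, chr12:69489450-69489885, had 236 tags over 47.2 tags and its summit lay 41885 bp from the nearest RH18 H3K27ac region and 86899 bp from the nearest RD region.

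The 44 RH18 H3K27ac and 28 MYF5 members that were not raised lay ahead of, between, within and after the raised blocks. The highest among them stood just under the limit, a MYF5 peak of the 89 Mb stretch at 3.97 times and 99 tags, and the lowest at the floor. Beyond the limits of the stretches, counts of raised peaks stand beside list shares of 10.1% for RH18 H3K27ac and 4.91% for MYF5. In the megabase preceding 48 Mb 1 of 24 H3K27ac peaks of RH18 (4.17%) was raised, with 7 of 13 for MYF5 (53.8%). In the following one 16 of 53 (30.2%) and 8 of 19 (42.1%) were. In the megabase before 69 Mb the counts were 1 of 9 (11.1%) and 3 of 4 (75%) in the same order. The megabase after 71 Mb had no RH18 peak to measure, and in that after 89 Mb 1 of 11 RH18 H3K27ac peaks (9.09%) was raised. In the megabases beside the 1 Mb stretch it was 1 of 20 before and 0 of 22 after, where the share of the whole list was 10.1%.

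The genes known in these intervals were matched to RefSeq by name only. All 6 at 1 Mb, 11 at 48 Mb, 15 from 69 to 71 Mb and 4 at 89 Mb were found. Between the outermost of them RefSeq lists 6, 21, 17 and 6 protein-coding genes. The third group runs in order from RAP1B and NUP107 through SLC35E3, MDM2, CPM, CPSF6, LYZ, YEATS4, FRS2, CCT2, LRRC10, BEST3, RAB3IP, MYRFL, CNOT2 and KCNMB4 to PTPRB. RAP1B is a small GTPase, NUP107 a nucleoporin, LYZ lysozyme, YEATS4 a reader of acetylated histones, and CNOT2 a subunit of the deadenylase complex. Which of these genes each peak touches was not worked out, and their expression was not measured.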

How the data were processed

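ChIP-seq peak lists of 3 libraries were used, 1 per group. Per the submitters' processing notes the tools were BWA 0.7.10 and MACS2 2.1.0 and the build hg19, with no role, control or threshold given. How deep each library was sequenced is not given in the sources used here. For every peak the deposited lists give a summit, a fold enrichment (a ratio over local background), p and q as −log10 p-value and q-value, and a score that was not used. Tags and background were recovered from the deposited fold and −log10 p-value by the MACS2 formulas. A tag was worth 0.273, 0.832 and 0.658 pileup units for RD, RH18 H3K27ac and MYF5. Each is below 1 unit, so the tag piles had been scaled down. The library they were scaled to is not stated and was not tested. Among sampled peaks with a single solution and a low pileup all tags came out whole within 0.1 tag. This check left out the tallest summits. More than 1 solution was found for 430 RD, 18 RH18 H3K27ac and 1 MYF5 peaks. On peaks simulated by the same formulas with raised backgrounds, 100%, 98.8% and 100% of tags were returned.

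A run is a set of consecutive peaks of a list at 4 times its lowest background or more, joined across at most 2 lower peaks. Named peaks were the 3 with the most tags per megabase and list, the 3 tallest MYF5 peaks inside and outside RH18 regions, and others chosen after their values were seen: the highest backgrounds, the peaks at the floor within or between blocks, and the MYF5 and RD peaks at named regions. Members, gene lists and measures were chosen with earlier results of these data known. With 1 library per group no test was made. Alternatives covered q-value, overlap, membership, run limit and window size. Input samples and MYOD, which the series title names, were not analysed here. Computations ran in Python 3.11.15 with scipy 1.17.1, numpy 2.4.6 and pandas 2.3.3, and figures in matplotlib 3.10.9.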

Additional observations from a re-analysis of the deposited data

How the results depend on the processing

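Of 50 alternatives, 44 left a share or median within its interval or, for numbers of runs, members in runs and peaks per window, which have no interval, within 1.5 times the value reported. With overlap of 50% of both regions, 15.7% of RH18 H3K27ac regions overlapped RD. MYF5 summits in RH18 regions became 53.6% with any overlap of peak and region and 59.0% within 500 bp, and those in RD regions became 20.7% within 500 bp. Inside the runs alone, the median background of RH18 H3K27ac at 1 Mb became 8.38 times. Windows of 50 kb gave 50 MYF5 peaks per 100 kb in the densest, where 100 kb windows gave 33. The number of H3K27ac runs holding members was 8 at 4 times, 8 at 3 times and 12 at 6 times, and 6 from the MYF5 list. E-boxes at summits and H3K27ac at gene starts, with their alternatives, were not run because no genome or annotation of the build was used here. No paired analysis was possible because each group held 1 library. Library depth is unknown, and the number of recovered tags limits the precision of each summit.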

Other observations

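Outside these stretches the RH18 H3K27ac runs with the most raised peaks were lower. The next in rank lay on chromosome 7 from 6312535 to 6769557, with 20 of 29 peaks raised, a median of 4.69 times the lowest background and a maximum of 11.4 times.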
